A study of Rattus norvegicus with 2 samples.

Results

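The purinergic receptors of microglia are taken here as a set of 10 receptor genes: P2ry1, P2ry2, P2ry6, P2ry12, P2ry13, P2ry14, P2rx4, P2rx7, Adora2a and Adora3. The members were all probe sets that the platform annotation assigns to exactly 1 of these genes, which gave 10 probe sets for 8 genes, of 14217 genes and 31042 probe sets on the array besides its controls. P2ry12 and Adora2a had 2 probe sets each and the other 6 genes had 1 each. P2ry13 had no probe set in the annotation used here, and each of the 2 probe sets carrying the symbol Adora3 was assigned to more than 1 gene ID. RNA came from microglial cells of Sprague Dawley rats cultured in serum-containing medium, either left at rest (1 array) or kept without oxygen and glucose for 3 h (1 array), a treatment called oxygen-glucose deprivation (OGD) that models ischaemia. Whether the cells were a primary culture or a line, and how many animals they came from, is not given in the sources used here.

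Nucleotides leave stressed and damaged cells and act as danger signals on neighbouring cells. ATP is broken down outside the cell by ectonucleotidases, first to ADP and AMP and then to adenosine, so different receptors are engaged as breakdown proceeds. Microglia carry G protein-coupled nucleotide receptors (P2ry genes), ATP-gated cation channels (P2rx genes) and adenosine receptors (Adora genes), and use them to extend processes toward injury, to engulf debris and to release cytokines.

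Values were linear array intensities, and their median over all non-control probe sets was 19.6 at rest and 19.7 after OGD. The median served as the floor of measurement, and a probe set under it on both arrays was given no fold. Each group had 1 array and no replicate, so differences are given without a test and describe these arrays. The spread that could be estimated was the SD of the log2 difference between probe sets of the same gene, 0.147 over 1902 genes. Over all 11594 probe sets naming 1 gene and above both medians the SD was 0.152. Both come from 1 pair of arrays and do not measure variation between cultures. How bright a probe set is also depends on its probes, so levels are set against the array median and not against those of other receptors.

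The labelled cell type was checked against its markers. Of 15 microglial and myeloid marker genes with a probe set, 12 were above the median on at least 1 array, beside 67.4% of all 14217 genes. All 4 platelet and lymphocyte marker genes with a probe set were above it too, so passing the median does not by itself tell cell types apart. Trem2, a lipid-sensing microglial receptor, was at 604.2 at rest and 582.6 after OGD in its brighter probe set, and the lysosomal marker Cd68 was at 370.7 and 359.7. The growth factor receptor gene Csf1r lay near the median, at 21.9 and 19.3, as did the homeostatic marker Tmem119, at 23.3 and 23.1. Gpr34, Irf8 and Sall1 were under the median on both arrays.

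Receptors coupled to inhibitory G proteins come first. P2ry12 encodes the ADP receptor through which resting microglia sense injury and direct their processes. Its brighter probe set had an intensity of 36.6 at rest and 30.6 after OGD. These values were 1.86 and 1.55 times the array medians, so the level was above the median on both arrays and lower after OGD. The log2 difference, OGD minus resting, was -0.26, which is 1.196-fold lower. Its dimmer probe set was at 3.99 at rest and 4.21 after OGD. That is 0.204 and 0.214 times the medians, so this probe set gave no second measurement of the difference. Among 11594 probe sets naming 1 gene and above the median on both arrays, 8.78% differed at least as far as P2ry12 in either direction. Among the 500 of these nearest to it in brightness the share was 12.2%.

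P2ry14 encodes the receptor for UDP and UDP-sugars. Its probe set was at 17.0 on the resting array, under the median at 0.865 times its value, and at 22.5 on the OGD array, above it at 1.15 times. It was the only receptor probe set above the median on 1 array alone. Set against the floor, P2ry14 was at least 1.15-fold higher after OGD. P2ry13, which encodes another ADP receptor, had no probe set and is given no value.

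In the RefSeq gene table of rat assembly GRCr8, P2ry12 and P2ry13 are neighbouring protein-coding genes, and both lie with P2ry14 within the span of Med12l. P2ry12 and P2ry14 thus share a locus. P2ry12 was dimmer after OGD in its brighter probe set. P2ry14 passed the floor on the OGD array alone, which leaves it no direction but higher, so their directions are not compared. P2ry6 and P2ry2 are also neighbours, as are P2rx4 and P2rx7.

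Of the 10 receptor genes 7 had a promoter in the RefSeq promoter table (GRCr8, 250 bases before to 50 after the start), and P2ry14 was the only one of these with a probe set above the median. Its promoter is shown for that reason, beside that of P2ry2, which held the most matches to the core sequences bound by hypoxia-inducible factors. The sequences searched were ACGTG and GCGTG on both strands, and matches are in capitals.
P2ry14 (GRCr8, chr2:145538461-145538760, minus strand): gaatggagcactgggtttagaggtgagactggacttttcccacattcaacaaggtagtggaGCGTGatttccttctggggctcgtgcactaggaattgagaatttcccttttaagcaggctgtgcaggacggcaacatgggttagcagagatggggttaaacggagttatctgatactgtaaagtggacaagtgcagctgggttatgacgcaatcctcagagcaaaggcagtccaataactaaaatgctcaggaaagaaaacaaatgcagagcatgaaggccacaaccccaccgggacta
P2ry2 (GRCr8, chr1:164779439-164779738, minus strand): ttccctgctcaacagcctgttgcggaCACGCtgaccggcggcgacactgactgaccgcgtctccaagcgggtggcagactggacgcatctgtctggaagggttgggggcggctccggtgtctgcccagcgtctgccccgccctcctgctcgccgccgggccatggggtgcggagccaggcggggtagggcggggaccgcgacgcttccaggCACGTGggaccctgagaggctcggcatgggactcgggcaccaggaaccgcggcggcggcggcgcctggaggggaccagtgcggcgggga
The P2ry14 promoter held 1 match, GCGTG at bases 62 to 66 counted from its 5′ end. The P2ry2 promoter held 3, of which 1 lay at bases 27 to 31 and a pair on opposite strands overlapped between bases 212 and 217. P2ry1 and P2ry13 had 1 match each, and P2rx4, P2rx7 and Adora3 had 0, so 4 of 7 promoters held a match. Over the promoters of all 27457 genes in the table, 1 per gene, the share with a match was 42.9%. A match describes letters in this window, and the arrays do not show binding.

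Receptors coupled to Gq and calcium release follow. P2ry6 encodes the UDP receptor known for triggering microglial phagocytosis. Its probe set was at 74.5 at rest and 87.8 after OGD, which is 3.80 and 4.47 times the medians. It was above the median on both arrays and higher after OGD. The log2 difference was 0.24, or 1.18-fold higher. At least as large a difference in either direction was found in 11.7% of all probe sets above both medians, and in 10.0% of the 500 nearest in brightness. P2ry6 lay at percentile 83.8 of the resting and 86.4 of the OGD array.

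P2ry2, which encodes a receptor for ATP and UTP, was under the median on both arrays. Its intensity was 12.99 at rest and 14.27 after OGD, or 0.662 and 0.726 times the medians. P2ry1, which encodes an ADP receptor, was at 4.23 and 4.15, or 0.216 and 0.211 times the medians. It lay at percentile 4.63 at rest and 4.10 after OGD, among the dimmest probe sets of the arrays. A value under the median does not show that a receptor was absent, since a probe set can be dim for reasons of its probes.

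The ATP-gated channels were both under the median. P2rx7 encodes the channel whose opening leads to potassium loss and inflammasome activation. Its probe set was at 8.99 at rest and 9.66 after OGD, 0.458 and 0.491 times the medians. P2rx4 encodes a channel induced in spinal microglia after nerve injury. It was at 10.2 at rest and 10.7 after OGD, 0.522 and 0.547 times the medians. Neither channel was given a fold.

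The adenosine receptor gene Adora2a encodes a Gs-coupled receptor linked to process retraction in activated microglia. Its brighter probe set was at 32.6 at rest and 32.0 after OGD, or 1.66 and 1.63 times the medians. The log2 difference was -0.03, smaller than the SD of 0.147 between probe sets of the same gene. Its dimmer probe set had 10.6 on both arrays, exactly equal in the deposited values, at 0.539 and 0.538 times the medians. Such ties occurred in 8.70% of probe sets across the arrays. Adora3 encodes a Gi-coupled adenosine receptor. The probe set listing its symbol for 2 gene IDs was at 7.30 and 8.15, and the one listing it with Tmigd3 was at 4.57 and 4.31, all under the median.

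**Figure D1:**
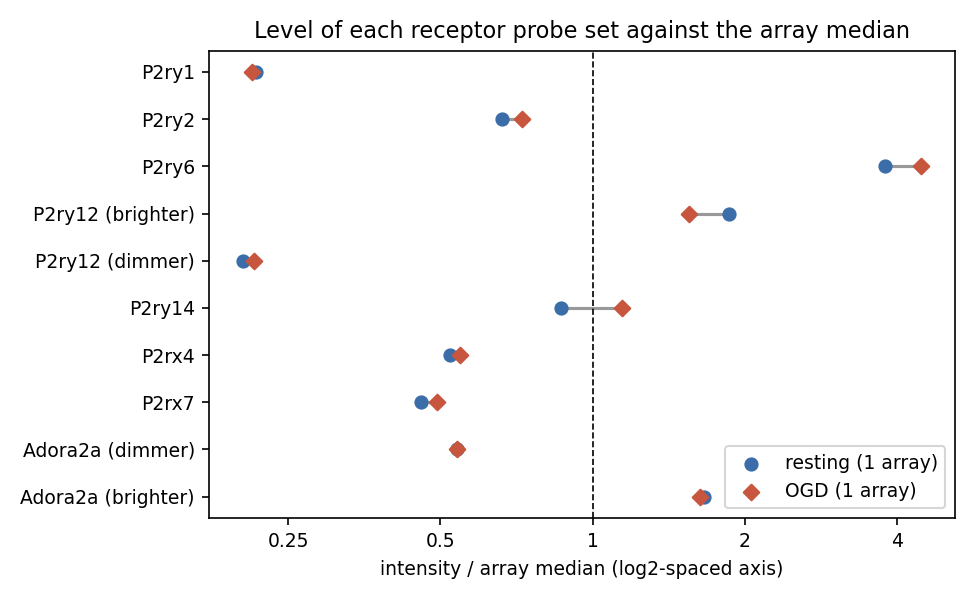
Intensity of each of the 10 receptor probe sets divided by the array median (log2-spaced x axis), with circles for the resting array, diamonds for the OGD array and a dashed line at the median. P2ry6, the brighter P2ry12 and the brighter Adora2a probe sets lie above the median on both arrays, P2ry14 crosses it, and the other 6 lie under it.

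Across the receptors, 3 of 10 probe sets were above the median on both arrays, 1 on the OGD array alone and 6 on neither. Of all 20826 probe sets naming 1 gene, 55.7% were above it on both arrays. The 4 measured probe sets belonged to 4 genes. Of these 2 were higher and 2 lower after OGD, with a median log2 difference of 0.09, beside -0.003 over all 12231 measured probe sets naming 1 gene. This median rests on the bound of P2ry14, and over the 3 probe sets above both medians it was -0.03. None of the 4 reached 1.5-fold, which is the cutoff that the series' design uses, where 0.164% of all measured probe sets did. At so low a background share a count of 0 among 4 says little about the receptors. P2ry12 and P2ry6 differed by more than the 0.147 SD between probe sets of the same gene, by less than 2 such SDs, and in opposite directions.

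**Figure D2:**
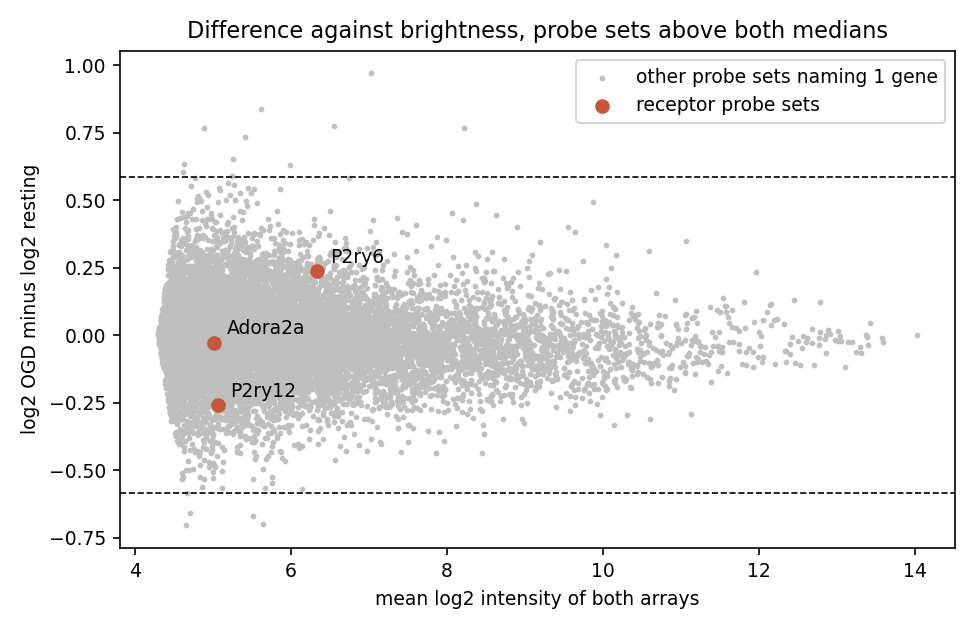
Log2 OGD minus log2 resting (y axis) against the mean log2 intensity of both arrays (x axis) for the 11594 probe sets naming 1 gene and above both medians, with dashed lines at 1.5-fold. The receptor probe sets P2ry6 (0.24), Adora2a (-0.03) and P2ry12 (-0.26) lie within the cloud of other probe sets of like brightness.

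Markers of microglia and of other cell types also differed slightly, and their part in the receptor values was not tested. The labels name microglial cells alone, and whether other cell types were present was not tested. Of 14 measured microglial and myeloid probe sets 13 were lower after OGD and 1, of the complement gene C1qc, was higher. Of all 12231 measured probe sets naming 1 gene, 6153 were lower. Csf1r was above the median on the resting array alone, so it could only count as lower. Aif1 and Trem2 each count more than once. The median log2 difference of the 14 was -0.09, smaller than the SD of 0.147 between probe sets of the same gene. The brighter P2ry12 probe set, at -0.26, and P2ry6, at 0.24, both lay within the range of these markers, -0.35 to 0.29. The summed intensity of the list was 1847 at rest and 1757 after OGD. Among astrocyte markers 3 of 7 genes were measured, in 3 of 14 probe sets. Gfap (27.4 and 36.9), Slc1a2 (23.8 and 32.0) and Gja1 (22.1 and 24.3) were brighter after OGD in these probe sets. The other probe sets of Slc1a2 and Gja1 were under the median on both arrays, as were Aldh1l1, Aqp4, S100b and Slc1a3. The summed intensity of all 14 astrocyte probe sets was 164.9 at rest and 183.2 after OGD. No measured marker probe set reached 1.5-fold. In RNA from a whole culture, fewer cells of a type and less RNA per cell cannot be told apart.

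P2ry12 is also the ADP receptor of blood platelets. The 4 measured platelet and lymphocyte markers had a median log2 difference of 0.004, with 2 higher and 2 lower after OGD. The platelet genes Pf4, Itga2b and Gp9 had -0.12, 0.04 and -0.03, and the lymphocyte gene Cd3e had 0.10. Summed intensities over all 5 probe sets of the list, including 1 of Cd3e under the median, were 257.4 and 250.04. For neurons 2 of 6 genes were measured (median 0.18), for the oligodendrocyte lineage 3 of 6 (-0.08), for endothelial and mural cells 2 of 4 (0.09) and for fibroblasts 1 of 4 (0.21).

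The other purinergic receptors were described with the same floor. Of 15 probe sets for 9 genes, 5 were measured, and none reached 1.5-fold. Adora1, the Gi-coupled adenosine receptor gene, was at 74.3 at rest and 90.5 after OGD, a log2 difference of 0.29, while its other probe set was under the median at 12.3 and 10.7. Adora2b, the low-affinity Gs-coupled adenosine receptor gene, was at 28.7 and 25.8, a difference of -0.16. In their measured probe sets Adora1 was thus brighter and Adora2b dimmer on the OGD array. The Adora2b difference was little larger than the SD between probe sets of the same gene, and that of Adora2a was smaller than this SD. Differences of the 500 probe sets nearest in brightness to the brighter Adora2a probe set had a wider SD, 0.183. Whether the adenosine receptors differ in direction was not tested, since each group had 1 array. P2rx3, a channel of sensory neurons, had -0.21 in 1 probe set and an exactly equal 26.3 in the other. P2rx1 had 0.18 in 1 probe set near the median, and its other was under it. The list's median was 0, with 2 higher, 2 lower and 1 equal.

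Enzymes and transporters that handle extracellular nucleotides and adenosine set which ligands the receptors meet. Of 28 probe sets for 20 genes 16 were measured, with 8 higher, 7 lower and 1 equal after OGD, none past 1.5-fold, and a median of 0.02. Entpd1, the microglial ectonucleotidase that degrades ATP and ADP, was at 55.2 at rest and 58.2 after OGD, a log2 difference of 0.08. Nt5e, which forms adenosine from AMP, was under the median at 5.36 and 4.39. Ada, which removes adenosine by deamination, had an exactly equal 32.2 on both arrays. The kinase gene Adk, which recycles adenosine to AMP, was at 76.7 and 79.0 in 1 probe set (0.04) and at 26.2 and 25.2 in the other (-0.06). The largest differences of the list were in Alpl, an alkaline phosphatase, at 78.2 and 59.2 (-0.40), in the ATP-releasing channel gene Panx1 at 26.0 and 31.8 (0.30) and in Entpd4, an intracellular nucleotidase, at 90.7 and 77.2 (-0.23). The other 2 probe sets of Panx1 were under the median.

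Downstream signalling genes, measured likewise, had log2 differences from -0.16 to 0.24. Of 35 probe sets for 26 genes 23 were measured, with 11 higher, 11 lower and 1 equal, none past 1.5-fold and a median of 0. Kcnk13, the potassium channel gene that sets the resting potential of microglia and acts downstream of the P2ry12 receptor, was at 20.2 at rest and 23.8 after OGD (0.24), close to the median. Arrb1, which encodes a beta-arrestin, was at 114.7 and 131.2 (0.19), and the receptor kinase gene Grk2 was at 88.0 and 78.6 (-0.16).

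**Figure D3:**
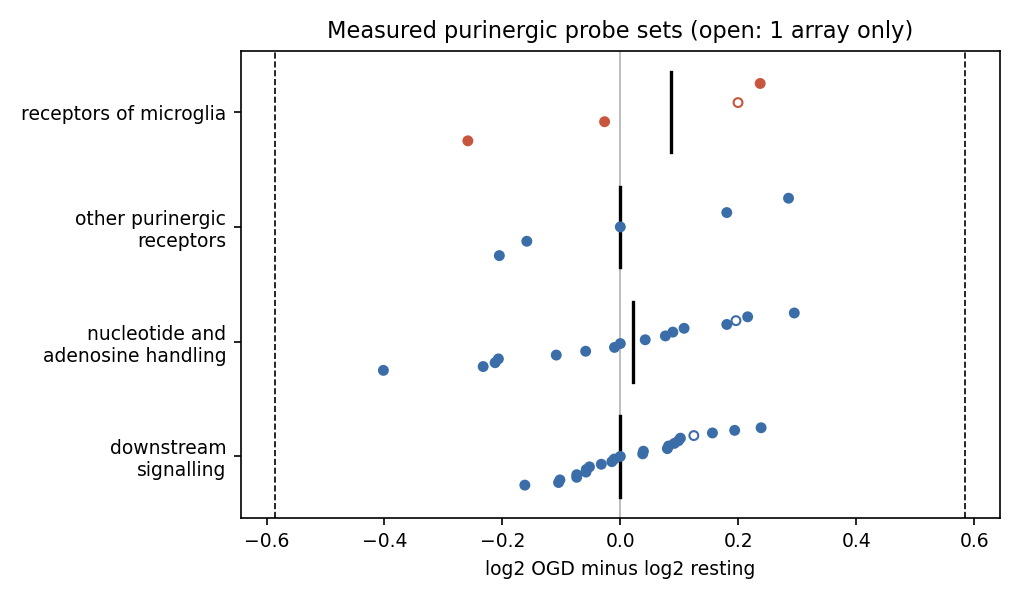
Log2 OGD minus log2 resting (x axis) of every measured probe set in the receptors of microglia and in the 3 other lists, with filled points for those above the median on both arrays, open points for bounds on 1 array, black bars for list medians and dashed lines at 1.5-fold. The points of all 4 lists lie between the dashed lines, from -0.40 for Alpl to 0.30 for Panx1.

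The differences of the measured receptors kept their direction in every setting that gave a value. A changed floor leaves values above it as they are, and scaling moved the differences little. Kept directions were thus nearly fixed in advance and do not stand in for replicates. P2ry6 ranged from 0.22 to 0.25 over 10 settings, P2ry12 from -0.26 to -0.21 over 9 and Adora2a from -0.04 to -0.02 over 9. P2ry14 ranged from 0.14 to 0.41, and the upper end came with a lower floor or none, where its resting value of 17.0 entered as measured. With the median taken over probe sets naming 1 gene, 25.1 on both arrays, P2ry14 would lie under it on the OGD array too.

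**Figure D4:**
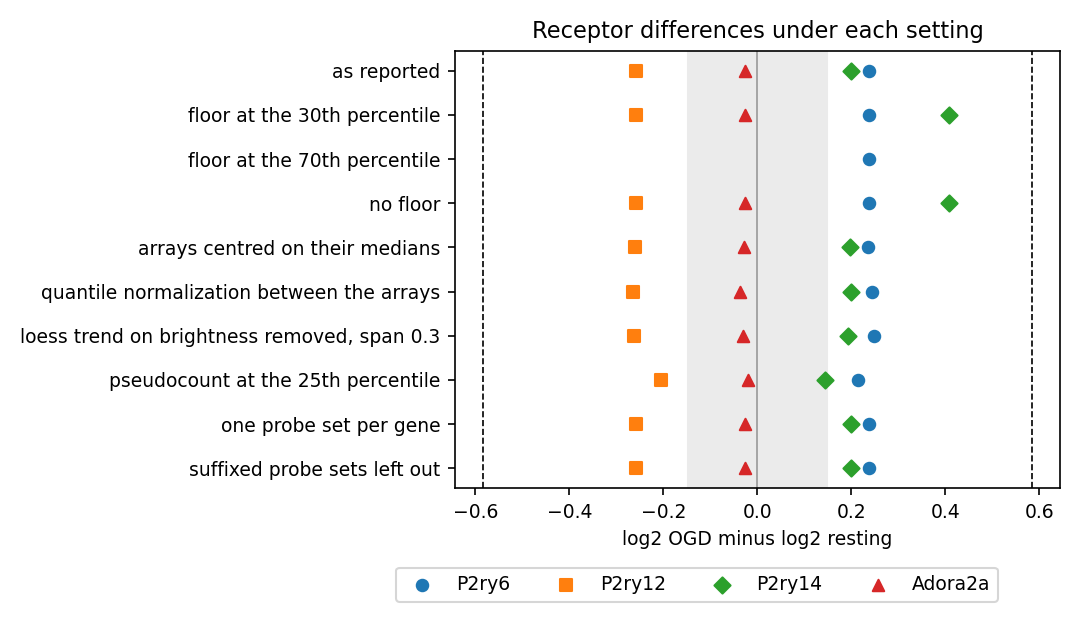
Log2 OGD minus log2 resting (x axis) of the 4 measured receptor probe sets under each processing setting (rows), with the SD of 0.147 between probe sets of the same gene shaded and dashed lines at 1.5-fold. P2ry12 stays between -0.26 and -0.21 and P2ry6 between 0.22 and 0.25, to 2 decimals, in each setting that measured them, and P2ry14 moves to 0.41 with a lower floor or none.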

How the data were processed

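RNA was labelled with biotin after priming with oligo(dT), per the labels' protocols. The deposited values are intensities, 1 linear value per probe set and array, and how the authors summarised and scaled them is not given in the sources used here. Groups came from the labels. Of 31099 probe sets, 57 were controls, and the platform annotation gave 1 gene for 20826, several for 436 and none for 9780. The files name no genome build.

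Intensities were log2 transformed with no pseudocount. The floor was each array's median, values under it were set to it, and a difference was given where at least 1 array was above it. The 10 receptors, every probe set naming 1 of them, were named in full. Of the other pathway lists, the 3 largest differences per list above both medians were named, with Entpd1, Nt5e, Ada, Adk, Adora1 and Adora2b. Cell type markers given by name were picked after their values were seen. The members and lists were chosen with earlier results of these data known. No gene was named for a like pattern, since 2 arrays give 1 difference per gene. Genes were counted at 1.5-fold, with no test across samples. The number of arrays limits the precision. The calculation was tested on simulated data with changes past 1.5-fold placed in probe sets well above the median. That simulation did not cover smaller changes or probe sets near the median, where the receptor differences lie. Python 3.11.15, numpy 2.4.6, pandas 2.3.3 and statsmodels 0.14.6 were used. Alternatives changed the floor, scaling, pseudocount, probe set choice, threshold, median and gene matching.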

Additional observations from a re-analysis of the deposited data

How the results depend on the processing

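No receptor probe set passed 1.5-fold under any floor, scaling, pseudocount or probe set choice. As reported none passed 1.2-fold, which P2ry12 did with quantile scaling, at a log2 difference of -0.2643, and P2ry14 did with a lower floor or none, at 0.41. The number measured, 4, became 7 with a floor at the 30th percentile, 1 at the 70th and 10 without a floor. The median difference of 0.09 became 0.24 at the 70th percentile, where P2ry6 alone was left. Measured probe sets naming 1 gene and past 1.5-fold, 20 as reported, numbered 53 at the 30th percentile, 6 at the 70th and 102 without a floor. They numbered 7 with a pseudocount at the 25th percentile and 11 with 1 probe set per gene. At 2-fold there were 0 and at 1.2-fold 991. Fewer dim probe sets enter with a higher floor. With the median taken over probe sets naming 1 gene, each receptor level was lower against it. Centring, quantile and loess scaling gave 21 to 22 and moved the median of all probe sets by under 0.01. The median of the other pathway genes, 0 as reported, stayed within 0.147 of it. No paired analysis was possible because each group had 1 array. No replicate could be left out for the same reason.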

Other observations

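Log2 differences repeated exactly between probe sets. To 6 decimals, 69.3% of the 31042 non-control probe sets shared their difference with at least 1 other, a share of 82.6% at mean intensities under 20, 66.7% from 20 to under 80, 38.7% from 80 to under 320 and 11.7% from 320 upward. Among the receptors 7 of 10 probe sets did. The difference of the dimmer P2ry12 probe set recurred in 119 others and that of P2rx7 in 63. The difference of P2ry12 in its brighter probe set recurred in 2 others and that of P2ry6 in 1, while those of P2ry14, P2rx4 and the brighter Adora2a probe set recurred in 0. That of Kcnk13 recurred in 38. The cause was not tested.

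A further regularity appeared among brighter values. Of 9161 probe sets with a mean intensity of 40 or more, 799 (8.72%) left the same remainder, 0.16523, after division by 0.5 on both arrays. Alpl, Entpd1 and Entpd4 were among them and 0 of the receptor probe sets were. Cd68 and the brighter Arrb1 probe set left the same remainder to the decimals available. Values of this kind lie on a common grid of steps of 0.5, and which step of the deposited processing left it is not given in the sources used here.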
